A study of Mus musculus with 6 samples.

Results

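The genes described here are 9 transcription factors of skeletal muscle formation and repair, namely Pax7, Myf5, Myod1, Myog, Myf6, Mef2a, Mef2c, Mef2d and Six4. They were taken by symbol from the deposited gene table, which lists 14016 genes, and all 9 were listed. The libraries came from quadriceps muscle collected 7 days after volumetric muscle loss, a surgical removal of part of the muscle, in which no scaffold was implanted. There were 3 mice with the genotype WT and 3 with the genotype GATA-1 mutant. The mutant is the ΔdblGATA line, a model of eosinophil deficiency made by deleting a high-affinity GATA site from the Gata1 promoter, so that the lesion is carried in every cell rather than in eosinophils alone. The study's methods describe the C57BL/6 WT animals as female and 10 to 12 weeks old at surgery; the age and sex of the mutants are not given in the sources used here. Both genotypes shared the injury, the time point and the absence of a scaffold. Per the study's methods, control wounds received sterile saline in place of the scaffold, and both legs were injured.

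The only values used here are the authors' mean log2 CPM of each gene over the samples, where CPM is a gene's read count scaled to the total of its library. One mean was given per gene for both genotypes together. No value per mouse was analysed here, so the depth of each library is unknown, no SD can be given, and whether 2 neighbouring levels differ beyond the spread between mice could not be tested. The comparison of WT with GATA-1 mutant muscle, for which the deposited table holds the authors' own test, was not used here. The genes whose pattern across samples is most like that of a given factor could not be named without values per mouse. The text below therefore describes levels in injured muscle, and a level averaged over genotypes neither shows nor excludes a difference between them. In a bulk sample, fewer cells of a type and less RNA per cell cannot be told apart.

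Satellite cells are the stem cells of skeletal muscle, and Pax7 is the factor by which they are usually recognised. After injury they are activated and become myoblasts, which express Myf5 and Myod1, then exit the cell cycle with Myog and fuse into fibres in which Myf6 (also known as MRF4) is maintained. Myf5, Myod1, Myog and Myf6 form the MyoD family of basic helix-loop-helix (bHLH) factors, which bind the E-box, written CANNTG, together with E protein partners. The MEF2 factors are MADS-box proteins that act with the MyoD family on muscle genes, and Six4 belongs to the sine oculis homeobox factors, which bind the MEF3 element. In the GENCODE M21 annotation Myf5 and Myf6 both lie on the minus strand of chromosome 10 and Myod1 and Mef2a on chromosome 7, while Myog, Mef2d, Pax7, Six4 and Mef2c lie on chromosomes 1, 3, 4, 12 and 13.

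The annotated promoter of Myog is shown because letters of the sites of the MyoD, MEF2 and sine oculis families all occur in it, and that of Mef2d because none of them does. Each line gives the 250 bases before the annotated start, 5′ to 3′ on the gene's strand, from RefSeq on GRCm38.p6. Capitals mark the E-box CANNTG, the MEF3 letters TCAGGTT and the MEF2 core letters TANNNNTA, where N is any base.
Myog, chr1:134289754-134290003, plus strand: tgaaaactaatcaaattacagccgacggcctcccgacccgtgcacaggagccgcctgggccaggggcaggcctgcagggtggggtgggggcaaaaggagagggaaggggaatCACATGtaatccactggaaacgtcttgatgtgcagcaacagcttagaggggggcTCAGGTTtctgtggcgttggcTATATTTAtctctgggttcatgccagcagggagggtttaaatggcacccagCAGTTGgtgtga
Mef2d, chr3:88142122-88142371, plus strand: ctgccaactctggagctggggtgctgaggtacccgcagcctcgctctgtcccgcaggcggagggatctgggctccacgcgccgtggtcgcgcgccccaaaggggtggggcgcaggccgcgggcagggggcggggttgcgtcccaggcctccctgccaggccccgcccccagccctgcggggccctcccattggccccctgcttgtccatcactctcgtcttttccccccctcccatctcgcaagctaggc

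In the Myog promoter the E-boxes begin 138 and 12 bases before the start, the MEF3 letters 84 bases before it and the MEF2 core letters 63 bases before it. The Mef2d promoter held 73.2% G and C and 19 CG dinucleotides, against 56.4% and 7 in that of Myog and medians of 52.4% and 6 over 32851 annotated mouse promoters of the same length. The table of promoters held 10 windows for 7 of the 9 factors, with 3 alternative starts for Mef2c and 2 starts for Six4 whose windows overlap. Searched on both strands, an E-box was found in 3 of the 10 windows, the MEF3 letters in 3 and the MEF2 core letters in 5. Over all promoters the shares were 66.2% for the E-box, 3.49% for the MEF3 letters and 34.4% for the MEF2 core letters. The letters TATAAA, found on either strand in 12.4% of all promoters, were present in 2 of the 10 windows. Both were windows of Mef2c, with the letters on the strand opposite to the gene.

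**Figure D1:**
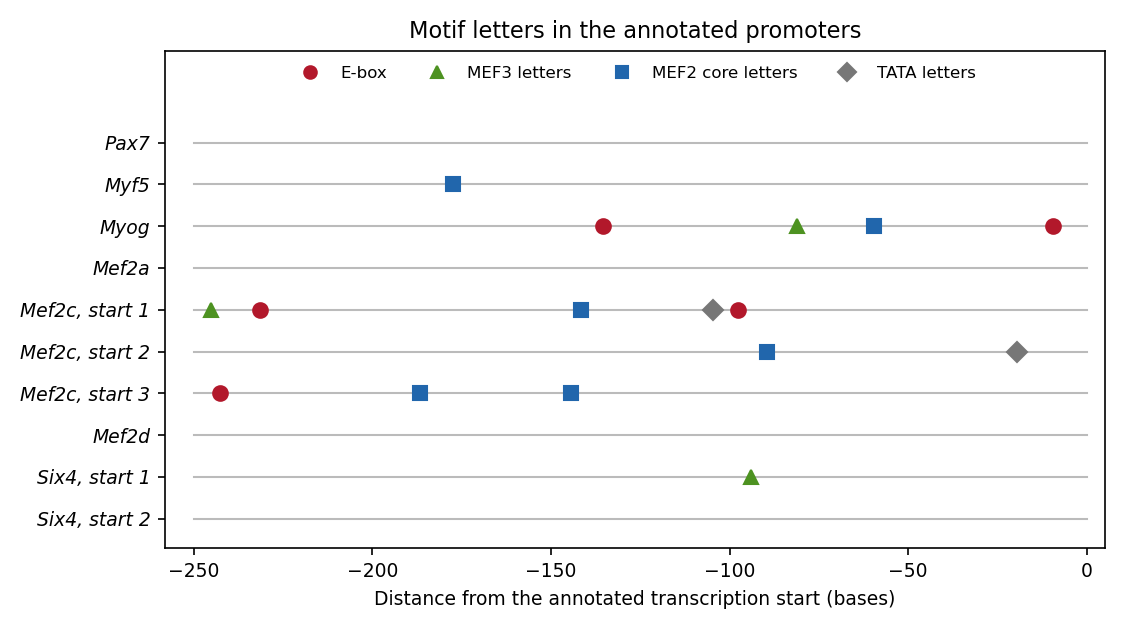
Positions of motif letters in the 250 bases before each annotated start of 7 of the factors, with the distance from the start in bases on the horizontal axis and 1 line for each start. Myog and the first Mef2c start carry E-box, MEF3 and MEF2 core letters together, while the lines of Pax7, Mef2a, Mef2d and the second Six4 start are empty. MEF2 core letters are TANNNNTA with any bases in the middle.

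Outside Myog, the E-boxes all lay in Mef2c windows, at 234 and 100 bases before its first start and 245 bases before the third. The MEF3 letters occurred on the strand opposite to the gene in the first Mef2c window, 248 bases before the start, and in the first Six4 window, 97 bases before the start. In the Myf5 window only the MEF2 core letters were found, 181 bases before the start, as TAGGTTTA. Only the MEF2 core matches in Myog (TATATTTA) and the first Mef2c window (TAATTTTA) had nothing but A and T in the middle. These are matches of letters in short windows, and binding was not measured.

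The 9 factors ranged from scarce to abundant. Their median of 6.37 mean log2 CPM compares with 4.03 over all 14016 genes, and 6 of the 9 lay above the upper quartile of all genes (5.36), a count given as a description with no test. Mef2c was the most abundant by reads, and Myf5 and Pax7 the least. Since a long transcript yields more fragments than a short one at the same number of molecules, the levels of different genes are compared below per kilobase of the longest annotated coding transcript. On that scale the median of the factors was 4.89 mean log2 CPM per kilobase against 2.28 over the 13945 genes with a matched length, and 6 of the 9 were again above the upper quartile (3.78).

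**Figure D2:**
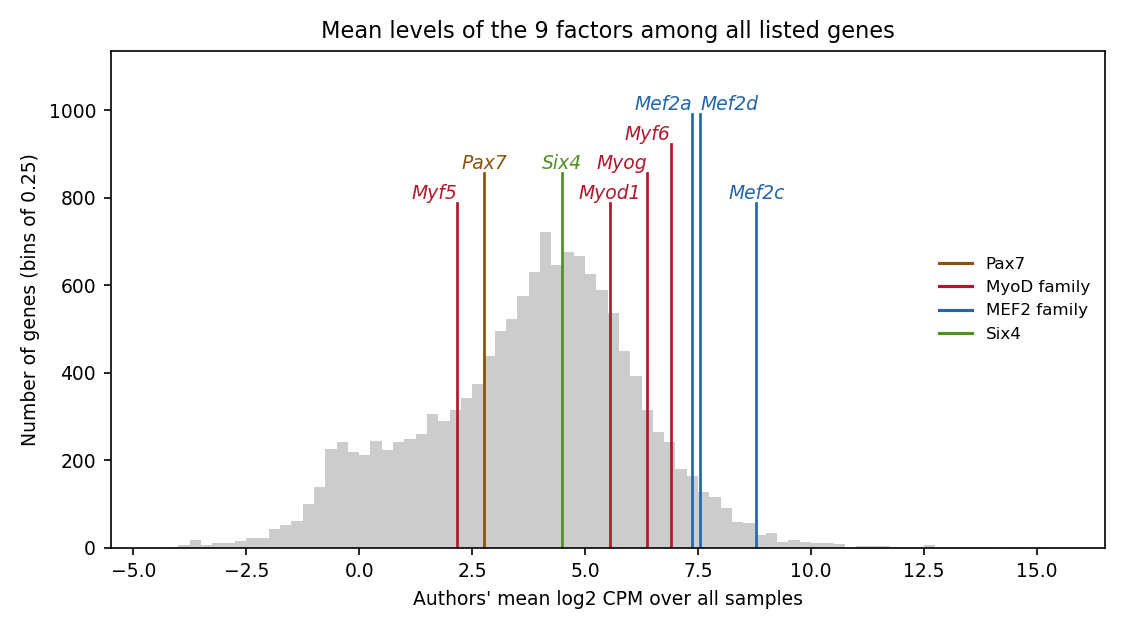
Histogram of the authors' mean log2 CPM over all samples for 14016 genes in bins of 0.25, with a vertical line for each of the 9 factors coloured by family. The lines run from Myf5 at 2.17 and Pax7 at 2.77, below the median of 4.03, to Mef2c at 8.79.

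Pax7, the satellite cell factor, had a mean of 2.77 log2 CPM, which is a geometric mean of 6.81 CPM and above 30.6% of listed genes. Per kilobase of its longest coding transcript, its level was 0.22 log2 CPM, the lowest of the 9 factors. Pax7 has 2 annotated coding transcripts, and per kilobase of the shorter its level was 1.98. With the shortest coding transcripts, Myf5 was at 1.11 and Six4 at 1.8, both below Pax7. Pax7 was thus detected above the authors' filter, which kept genes over 1 CPM in at least 3 samples, but in the lower part of the distribution. Pax3, its paralogue, was listed at 0.01 mean log2 CPM, or a geometric mean of 1.0 CPM, and at -1.94 per kilobase.

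Among the MyoD family, the early factor Myf5 was scarce and the other 3 were abundant. Myf5, which marks satellite cells and early myoblasts, had a mean of 2.17 log2 CPM (geometric mean 4.5 CPM) and 1.11 per kilobase. Myod1, the determination factor of activated myoblasts, had a mean of 5.55 log2 CPM (geometric mean 46.8 CPM) and 4.65 per kilobase. Per kilobase, Myod1 was 11.6 times as high as Myf5 and 21.6 times as high as Pax7. The ratio to Pax7 rests on its longest transcript. With the median length, Pax7 was at 1.8 and Myod1 at 25.1 CPM per kilobase.

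Myog, which encodes myogenin, the factor of terminal differentiation whose promoter is printed above, had a mean of 6.37 log2 CPM (geometric mean 82.6 CPM) and 5.79 per kilobase. Myf6, the family member maintained in mature fibres, had a mean of 6.89 log2 CPM (geometric mean 119 CPM) and 6.55 per kilobase. The order per kilobase, from Myf6 through Myog and Myod1 to Myf5, was also the order of the levels without a length correction. Myf6 exceeded Myog by 0.77 and Myog exceeded Myod1 by 1.14, both as differences of log2 CPM per kilobase. Of the summed geometric means per kilobase of the 4 genes, Myf6 made up 53.2%, Myog 31.3%, Myod1 14.3% and Myf5 1.22%. Each of the 4 genes has a single annotated coding transcript, so these values do not depend on a choice of isoform.

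The listed MEF2 genes were all abundant. Mef2c, the most abundant factor without a length correction, had a mean of 8.79 log2 CPM (geometric mean 442 CPM), above 98.7% of listed genes, and 6.14 per kilobase. Mef2d, which is known for a muscle isoform made by splicing, had a mean of 7.55 log2 CPM (geometric mean 187 CPM) and 5.11 per kilobase. Mef2a, a widely expressed member that is also present in mature muscle, had a mean of 7.36 log2 CPM (geometric mean 164 CPM) and 4.89 per kilobase. With these lengths, Mef2c was 2.03 times as high as Mef2d and 2.37 times as high as Mef2a per kilobase, whereas Mef2d and Mef2a differed by 0.22 on the log2 scale. The size of the lead of Mef2c depended on the length: with the median length of all coding transcripts, the geometric means were 417 CPM per kilobase for Mef2c, 70.8 for Mef2d and 63.9 for Mef2a. The fourth member, Mef2b, was not listed.

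The place of the MEF2 genes relative to the MyoD family depended on the transcript length used. With the longest coding transcript, Myf6 stood first, 0.42 above Mef2c on the log2 scale per kilobase. GENCODE M21 annotates 27 coding transcripts of Mef2c, from 332 to 6277 nt, 6 of Mef2a and 4 of Mef2d. With the median of coding transcripts of at least 1 kilobase, Mef2c became first at 6.98, ahead of Myf6 at 6.55, and Mef2d at 6.15 and Mef2a at 5.95 passed Myog at 5.79. The order of Myod1, Six4, Myf5 and Pax7, in the last 4 places per kilobase, was the same under both lengths. With the shortest coding transcripts, however, Pax7 passed Myf5 and Six4.

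**Figure D3:**
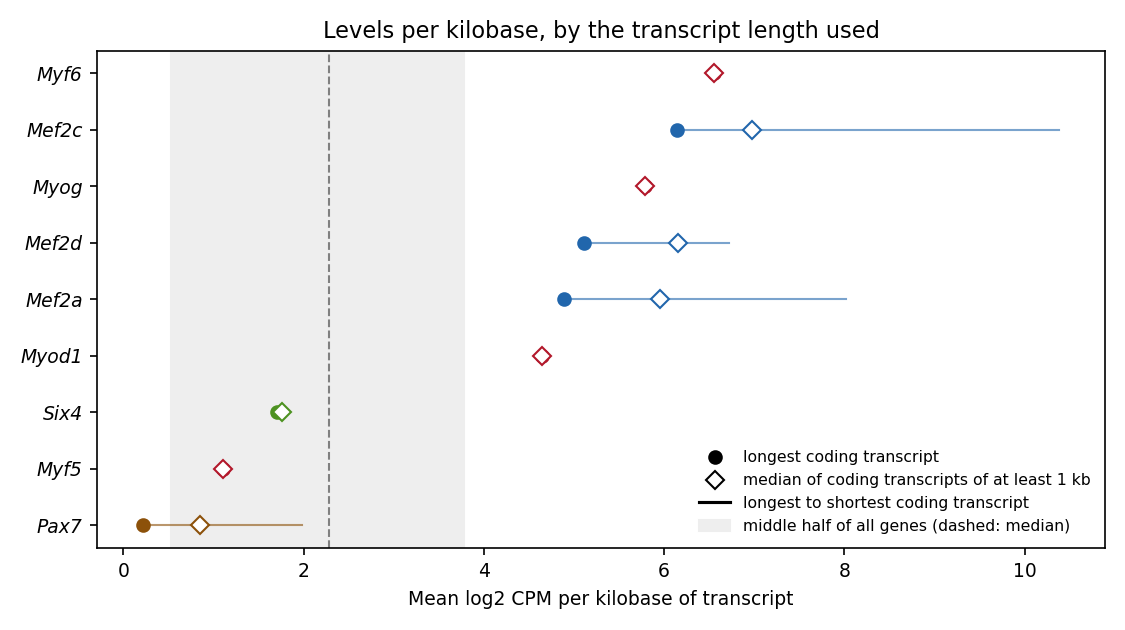
Mean log2 CPM per kilobase of the 9 factors by the transcript length used: filled circles for the longest coding transcript, open diamonds for the median of coding transcripts of at least 1 kb, and lines from the longest to the shortest. The shaded band is the interquartile range of all genes, from 0.53 to 3.78, and the dashed line their median of 2.28; the MyoD family genes have 1 length each, and the Mef2c line is the longest, from 6.14 to 10.38.

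Six4 had a mean of 4.48 log2 CPM (geometric mean 22.4 CPM), above 58.8% of listed genes, but its long transcript brought it to 1.71 per kilobase, above 40.5% of genes on that scale. Six2 and Six5, other members of the family, were at 1.90 and 1.45, close to Six4.

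How far each factor's reads can be assigned to it alone was examined in the GENCODE M21 transcripts, by the percent of the 31-base words in its longest coding transcript that also occur, on either strand, in transcripts of other genes. The value was 0 for Pax7, Myf5, Myod1, Myog and Myf6, 0.032% for Mef2c and 1.47% for Six4. For Mef2a it was 4.94% and for Mef2d 9.38%. In both of these the shared words came almost entirely from a gene on the opposite strand with overlapping exons, Lysmd4 for Mef2a and 1700113A16Rik for Mef2d. Whether the reads were assigned by strand is not given in the sources used here, so some reads of these partners may be counted under Mef2a or Mef2d, and their part in the levels was not tested.

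The factors work with partners and antagonists, of which 49 of the 50 reported from a list of related genes were in the table, 4 of them under older symbols. Per kilobase, the median of these 49 genes was 2.65 log2 CPM against 2.28 for all genes; 30 lay above that median and 12 above the upper quartile. The 3 E proteins, the dimer partners of the MyoD family, were all above the median of all genes, from Tcf12 at 3.07 to Tcf4 at 3.87. With the longest coding transcripts, the E proteins were lower per kilobase than Myod1, Myog and Myf6 and higher than Myf5. Other transcript lengths were not tried for the related genes, so this order was not checked against them. The 13 inhibitors of bHLH factors ran from Id4 at -0.39 to Bhlhe40 at 4.98. Of the Id proteins, which bind E proteins but not DNA, Id3 at 4.79 was close to Myod1 at 4.65, whereas Id1 and Id2 were at 3.35 and 2.61.

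**Figure D4:**
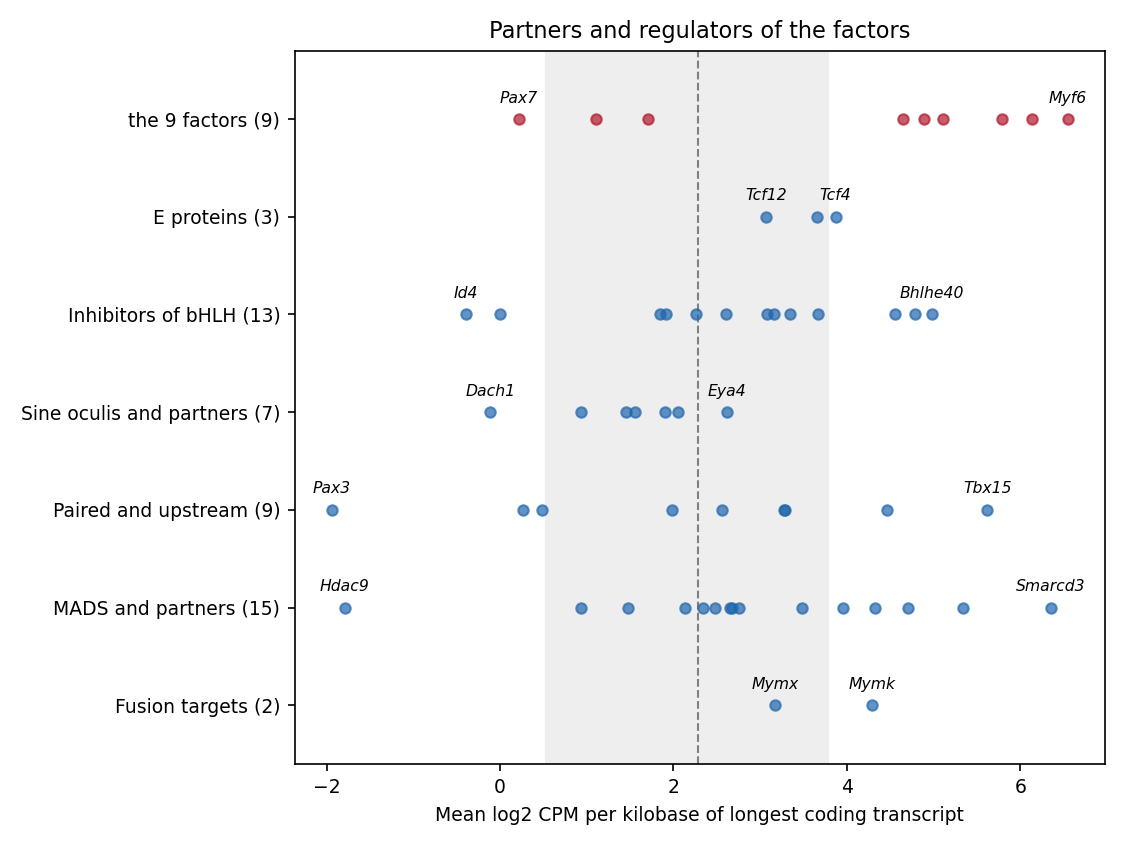
Mean log2 CPM per kilobase of the longest coding transcript for the 9 factors (red) and 49 related genes (blue), 1 point a gene, with the number of listed genes in parentheses and the lowest and highest gene of each row named. The band and the dashed line are the interquartile range and the median of all genes; the 9 factors split into 3 below the median and 6 above the band.

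Among the 7 sine oculis factors and partners reported, Eya4, a coactivator, was the highest at 2.62 per kilobase and Dach1, a corepressor, the lowest at -0.11. Among the 9 paired-type and upstream factors, Pax3 was the lowest and Tbx15, a T-box factor, the highest at 5.62. Of the 15 listed MADS-box genes and partners, Smarcd3, a muscle subunit of the SWI/SNF chromatin remodelling complex, was the highest at 6.35, between Mef2c and Myf6. Srf, the MADS-box factor related to MEF2, was at 4.71, below the 3 listed MEF2 genes. Hdac5, a class IIa deacetylase that represses MEF2, was at 3.96, Hdac7 at 2.76, Hdac4 at 2.68 and Hdac9 at -1.79, the lowest of this group. The 2 fusion proteins that the MyoD family is known to induce, myomaker (Mymk) and myomerger (Mymx), were listed as Tmem8c and Gm7325 with 4.29 and 3.17 per kilobase.

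Markers of muscle fibres and satellite cells were also described, with no uninjured muscle to set beside them. The 9 fibre genes were all listed, led by Acta1, the skeletal actin, at 13.77 mean log2 CPM per kilobase. The embryonic and perinatal myosin genes Myh3 and Myh8, which mark newly formed fibres, were at 5.50 and 6.26, beside Myog at 5.79. The other regenerating fibre markers were lower, with Chrna1 at 4.16, Chrng at 2.88 and Ncam1 at 2.83. Of the 8 satellite cell markers other than Pax7, the highest was Itga7 at 4.21, and Calcr, a marker of quiescent satellite cells, was the lowest at -2.69. By longest coding transcripts, Pax7 at 0.22 thus lay between Calcr and the other 7 markers, the lowest of which was Megf10 at 0.90. Itga7 and several of the others are also expressed outside satellite cells.

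Markers of several other cell types were listed in the same RNA. Lyz2 at 8.72 led the 6 macrophage markers, Dcn at 8.07 the 4 fibro-adipogenic markers and Pecam1 at 4.63 the 3 endothelial markers. The medians of these groups were 3.61, 5.74 and 4.53, in that order. Of the 3 smooth muscle markers, Acta2, which myofibroblasts also express, was at 6.15, whereas Myh11 at 1.36 and Cnn1 at -0.44 lay below the median of all genes. Both listed T cell markers were low, with Cd4 at 0.09 the higher. Of the 8 eosinophil markers, 1 was listed, Ear2, at 0.61 per kilobase and 0.13 mean log2 CPM. That mean includes the GATA-1 mutant mice, a model of eosinophil deficiency, so it does not give the level in WT muscle. Because Mef2c is also expressed by endothelial and some immune cells, and Tcf4 and the Id genes by many cell types, the levels here are those of the whole tissue; the part of each cell type in them was not tested.

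**Figure D5:**
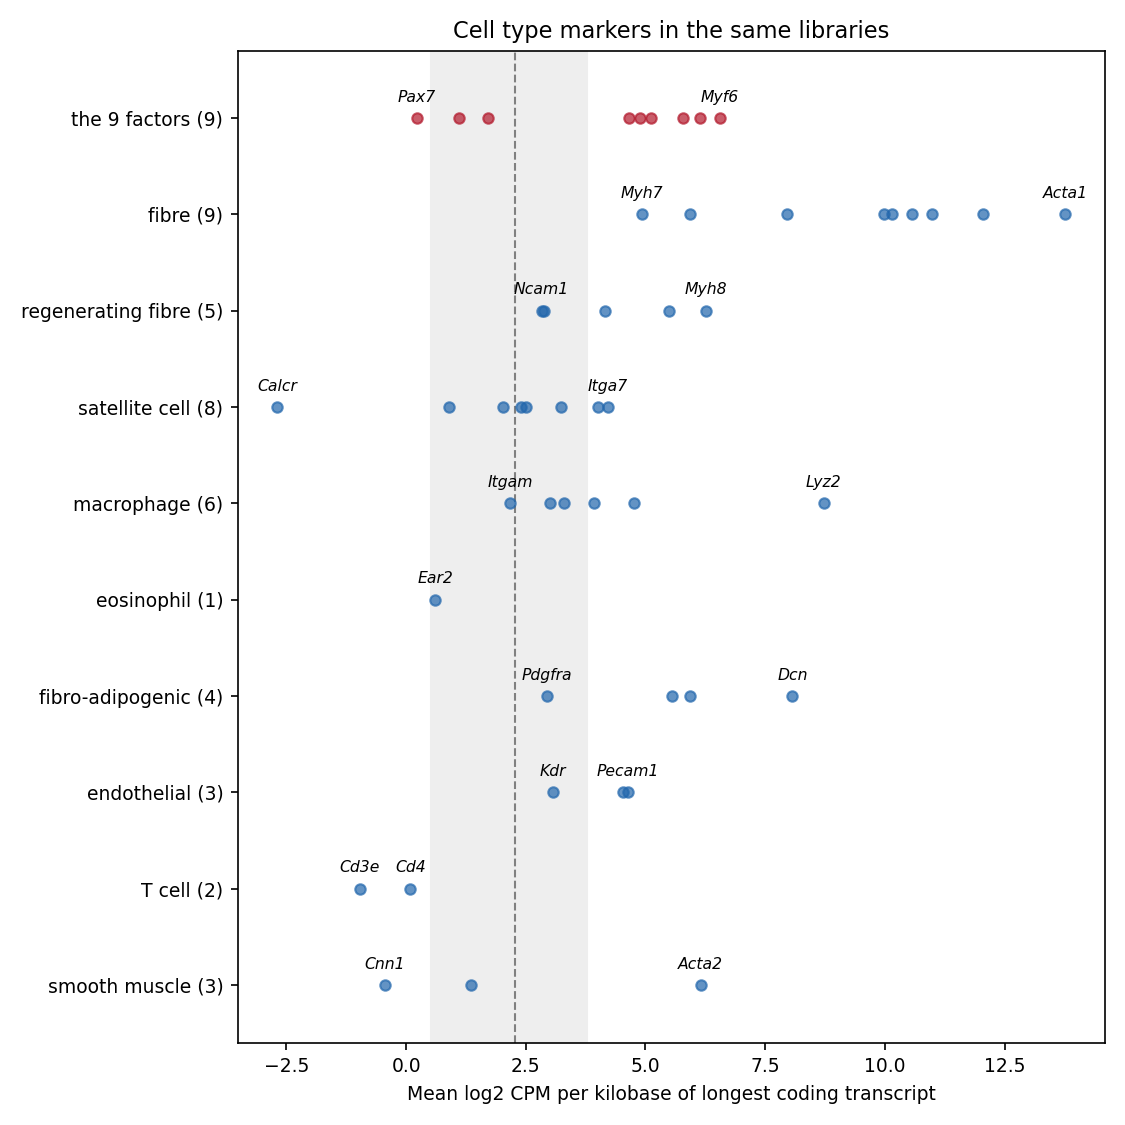
Mean log2 CPM per kilobase of the longest coding transcript for the 9 factors (red) and for listed markers of 9 cell types or states (blue), drawn as in the plot of related genes. The fibre genes reach 13.77, above every factor. Pax7, drawn in the row of the 9 factors, lies between Calcr and the other markers of the satellite cell row.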

How the data were processed

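Per the labels, libraries were made from RNA with a poly(A) tail. Per the study's methods, paired-end reads from quadriceps muscle were pseudoaligned with kallisto and summed to genes, the authors computed CPM values with edgeR, genes above 1 CPM in at least 3 samples were kept, and values were log transformed, TMM-normalized and compared with limma. The submitters' processing notes name the builds GRCm39 and mm39; the versions of kallisto, edgeR and limma are not given in the sources used here. The deposited log2 values used here are the authors' mean log2 CPM of each gene over all samples. The other columns of that table hold the authors' own comparison of the genotypes (log fold change, moderated t, p before and after adjustment, log odds) and were not used, so no test was run. The tests planned for values per sample were not run.

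Of 14016 rows, 1 has no symbol. Gene lengths came from GENCODE M21 on GRCm38, where 13458 symbols occur as such and 487 more were found through RefSeq synonyms. This gave a length for 99.5% of genes. The level per kilobase is the mean log2 CPM minus log2 of the longest coding transcript in kilobases (the longest transcript where none is coding). A geometric mean is 2 to the power of that mean, and includes the authors' unknown prior count. The geometric means of all genes sum to 924064 CPM. Motifs were searched in RefSeq promoters (GRCm38.p6) of which the 250 bases before the start were used. Calculations ran in Python 3.11.15 with pandas 2.3.3 and numpy 2.4.6. The percentile calculation was tested on simulated levels of known rank. The named genes are the 9 factors and, of each list, genes that were highest or lowest. Hdac4, Hdac5, Hdac7, Id1, Id2, Id3, Six2, Six5 and Srf were named after their values were seen. So were Myh3, Chrna1, Chrng, Ncam1, Megf10, Calcr, Myh11, Cnn1 and both fusion genes. The factors and lists were chosen with earlier results of these data known. The alternatives were other gene sets for the percentiles and other transcript lengths. Of the list of related genes, 1 is not reported here.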

Additional observations from a re-analysis of the deposited data

How the results depend on the processing

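No paired analysis was possible because the only values used are means over all samples. For the same reason other pseudocounts, another filter per sample and leaving out each mouse were not run. The median percentile of the 9 factors was 88.4 among all listed genes, 88.2 among protein-coding genes, 86.3 among genes whose mean log2 CPM reached 1 and 87.3 per kilobase, a setting chosen after seeing the data. With 5 percentile points as the limit, since no replicate spread was at hand, 9 of the 27 percentiles of single factors moved, the lowest being that of Myf5 among genes with a mean of at least 1 (10.9 against 24.3). The order of levels rests on the length correction. Of the 9 places without it, 2 were kept per kilobase of the longest coding transcript, 4 per kilobase of the median coding transcript and 4 with transcripts under 1 kilobase left out, the latter 2 settings being chosen after seeing the data. The median of the related genes was 4.44 mean log2 CPM, and 4.45 with a mean of at least 1. That list holds none of the 9 factors, so leaving them out changed nothing.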
